A study of Mus musculus with 45 samples.

Results

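Keratin genes were defined as the gene symbols of the count table that consist of Krt followed by digits alone, which gave 50 of 55367 symbols. They comprise 26 type I genes, 23 type II genes and Krt88, which was left without a type. Symbols with a letter after the number (Krt6a, Krt6b, Krt33a and Krt33b) lie outside this definition, and together they reached at most 0.868 counts per 1000000 counts of a library (CPM) in any library.

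The keratins were followed in female Balb/c mice that carried a porous polycaprolactone scaffold under the skin, an engineered site for circulating cells. The mice either bore no tumor (control) or were inoculated orthotopically, in the mammary fat pad, with cells of 1 of 3 lines. The lines 67NR (described as nonmetastatic), 4T07 (micro-metastatic, or invasive and nonmetastatic) and 4T1 (metastatic) descend from the same spontaneous mouse mammary tumor. On day 14, scaffolds, lungs and spleens of all 4 groups and the tumors of the 3 tumor-bearing groups were taken, with 3 libraries in each of 15 groups. Each condition is represented by 1 line, so the line and its metastatic description cannot be told apart. No label ties a library to a mouse, so p-values measure only the spread between these libraries. The tumor samples hold host cells as well as cells of the line.

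Keratins are the intermediate filament proteins of epithelial cells. A type I and a type II chain pair with each other to build the filament, so each filament holds chains of both types. Krt8 and Krt18 form the filaments of simple epithelia, such as the lining of the lung and of the mammary ducts, often with Krt7 and Krt19. Krt5 and Krt14 form those of the basal layer of stratified epithelia and of mammary myoepithelial cells. Krt1 and Krt10 replace them in the upper epidermis, Krt4 and Krt13 in the squamous lining of the mouth and esophagus, and further members serve hair and hair follicles. In carcinomas, keratins are commonly read as a mark of the epithelial state of the tumor cells.

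In RefSeq, 25 of the 50 genes lay on chromosome 11 and 25 on chromosome 15. Krt18 is a type I gene that sits beside its partner Krt8 at the end of the type II cluster on chromosome 15, and Krt7 lies near the other end of the same cluster, beside Krt80. These 3 genes carried large differences between the tumors, and their start site regions are therefore shown, from 250 bases before to 50 bases after the start site, 5′ to 3′ on the strand of the gene, from RefSeq build GRCm38.p6. Capitals mark the motifs GGGCGG, the GC box bound by Sp1, and TATAAA, the TATA box, each read on both strands, so that CCGCCC and TTTATA are the same motifs on the opposite strand. A match describes the letters of this window and is no evidence of binding.
Krt7 (chr15:101412153-101412452, plus strand): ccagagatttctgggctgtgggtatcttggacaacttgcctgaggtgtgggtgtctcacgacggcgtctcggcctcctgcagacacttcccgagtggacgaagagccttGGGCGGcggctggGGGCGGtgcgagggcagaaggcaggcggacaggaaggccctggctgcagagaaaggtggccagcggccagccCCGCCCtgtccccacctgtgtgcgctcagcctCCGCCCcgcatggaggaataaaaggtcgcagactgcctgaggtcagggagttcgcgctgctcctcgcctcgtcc
Krt8 (chr15:102004293-102004592, minus strand): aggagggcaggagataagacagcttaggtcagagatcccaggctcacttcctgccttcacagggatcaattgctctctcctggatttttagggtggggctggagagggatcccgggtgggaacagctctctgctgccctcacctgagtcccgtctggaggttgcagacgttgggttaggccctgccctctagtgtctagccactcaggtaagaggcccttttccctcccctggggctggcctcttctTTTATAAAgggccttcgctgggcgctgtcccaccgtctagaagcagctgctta
Krt18 (chr15:102027966-102028265, plus strand): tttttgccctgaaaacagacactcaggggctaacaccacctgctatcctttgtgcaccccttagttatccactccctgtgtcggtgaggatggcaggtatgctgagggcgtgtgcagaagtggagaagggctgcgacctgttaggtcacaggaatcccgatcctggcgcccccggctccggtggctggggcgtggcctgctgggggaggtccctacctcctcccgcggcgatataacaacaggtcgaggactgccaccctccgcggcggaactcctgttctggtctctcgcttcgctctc

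The Krt7 region held GGGCGG at 4 places, the Krt8 region held overlapping TATAAA matches on both strands, and the Krt18 region held neither. Of the 50 keratins, 35 had a start site region, with 36 entries. TATAAA occurred in 50.0% of those 36 entries, against 13.6% of 32851 start site regions of all genes. GGGCGG occurred in 5.56% of them, against 35.7% of all regions. The AP-1 motif TGANTCA was found in 5.56%, against 7.81%, and AACCNGTT, a motif of grainyhead factors, in 0%, against 2.09%. None of these 4 motifs was present in all 3 regions shown, each 300 bases long.

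The libraries held 3491888 to 8175380 counts, with a median of 5149589. The lungs held the markers of their tissue (a summed level of 3588 to 21555 CPM for 10 airway genes and 3878 to 27906 CPM for 10 alveolar genes), and the alveolar genes were also present at 24.2 to 325 CPM in the other tissues. A few libraries stood apart by skin and squamous genes. A list of 17 skin and hair genes summed to 146 CPM in 4T07 scaffold library 22, against 4.41 to 13.0 CPM in the other scaffolds. It summed to 84.0 and 140.0 CPM in 67NR lung libraries 14 and 15, against 10.9 to 34.1 CPM in the other lungs. It summed to 19.8 CPM in 67NR tumor library 21, against 0.806 to 6.22 CPM in the other tumors. Results that rest on these libraries are given with and without them, where the gene could still be tested.

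Few keratins were detected. Krt35, Krt39, Krt40, Krt71, Krt74 and Krt90 had no count in any of the 45 libraries, and another 21 members, mostly hair and inner root sheath keratins, had 1 to 30 counts over all libraries and at most 1.59 CPM in any of them. Genes with more than 10 counts over the libraries of a tissue were tested, which held for 16 keratins in tumors, 23 in scaffolds, 19 in lungs and 13 in spleens, while 22 were tested in no tissue. A gene can pass this filter through the group in which it is high, so counts of tested members describe them and do not speak for the family. The map of group means shows the detected members as a few bright columns among dark ones.

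**Figure D1:**
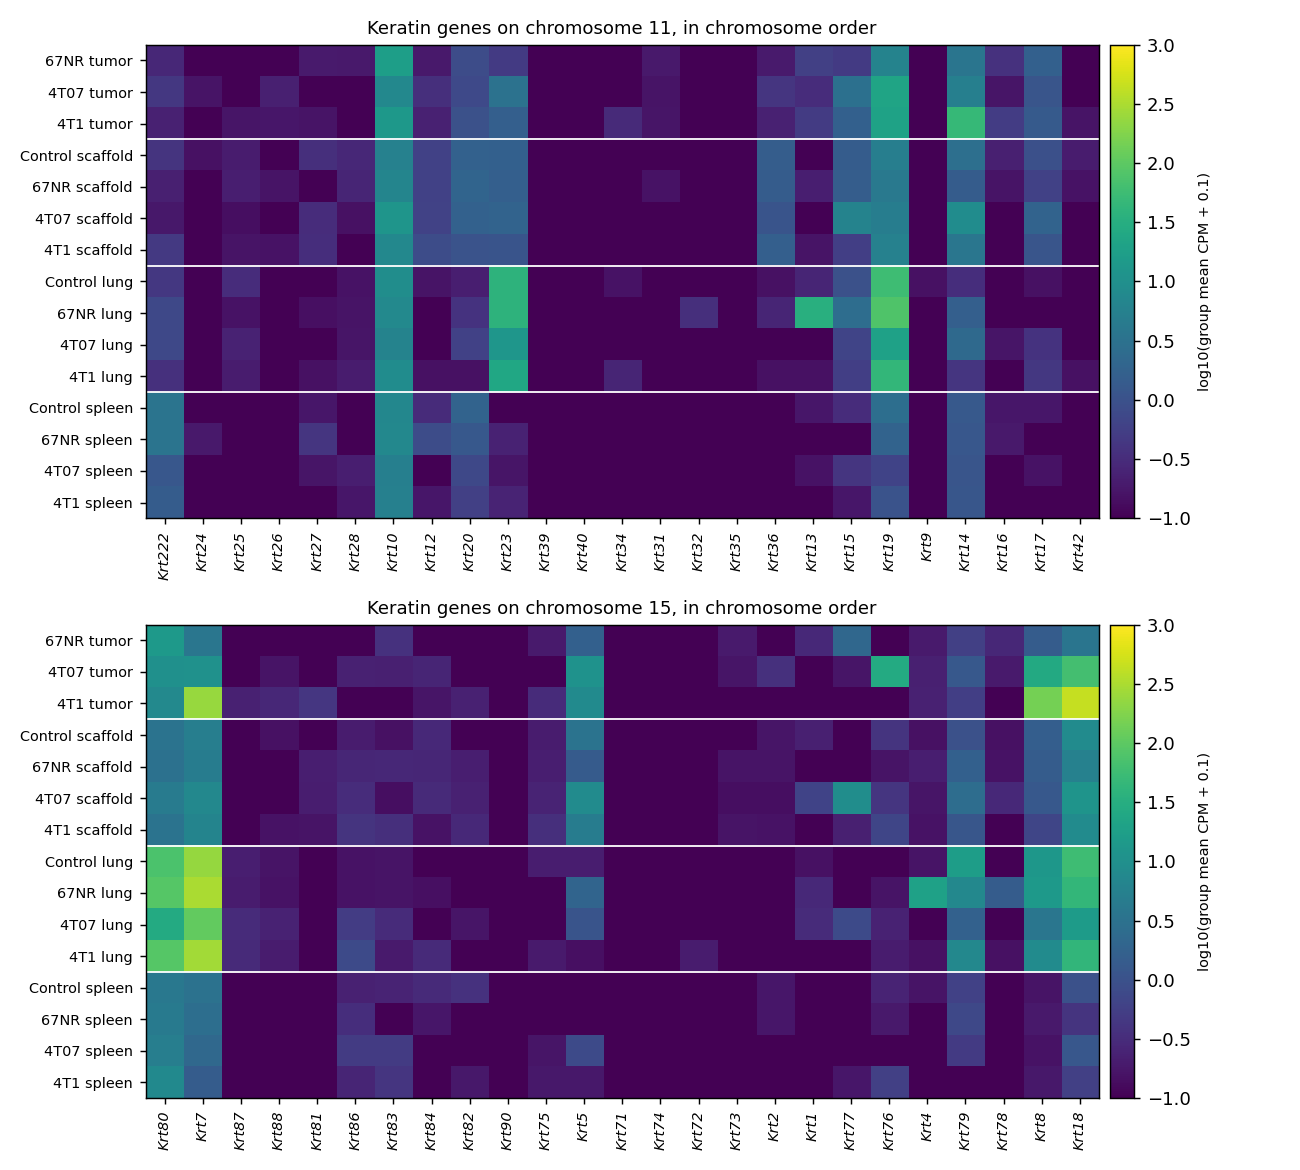
Group mean levels of all 50 keratin genes, drawn as log10(CPM + 0.1) with 1 row for each of the 15 groups and 1 column for each gene in chromosome order. Krt8 and Krt18 are brightest in the 4T1 tumors (148 and 449 CPM), Krt7 is bright in the 4T1 tumors (239.5 CPM) and in the lungs (108 to 309.8 CPM), and most columns stay dark in every group.

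The first comparison asked how the keratins of the primary tumors differed between the 3 lines. The filament pair of simple epithelia, Krt8 and Krt18, differed in every pairwise comparison and was lowest in 67NR and highest in 4T1 tumors. Krt7 and Krt14 were higher in 4T1 tumors than in both others, and Krt76 was detected among the tumors only in the 3 4T07 libraries. Expression was tested with the quasi-likelihood F test of edgeR, with Benjamini-Hochberg adjustment over all genes tested. In tumors a call required more than a 2-fold change with an adjusted p below 0.05. Of the 16 keratins tested, 9 were called in 4T07 against 67NR tumors, 7 higher and 2 lower, where 28.9% of all genes tested were called. In 4T1 against 67NR tumors 6 were higher and 2 lower (all genes 20.7%), and in 4T1 against 4T07 tumors 4 were higher and 1 lower (all genes 8.61%).

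The summed level of all 50 keratins was 45.2, 57.1 and 73.1 CPM in the 67NR tumors, 146, 228 and 212 CPM in the 4T07 tumors and 1020.2, 892 and 914 CPM in the 4T1 tumors. The 3 groups did not overlap. In bulk tissue, fewer epithelial cells and less keratin RNA per cell cannot be told apart. The libraries hold 3′ tags, so levels were not divided by transcript length and are not ranked between genes.

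Krt18, the type I partner of Krt8, was measured at 2.96, 3.92 and 3.67 CPM in 67NR tumors, 45.0, 81.6 and 64.6 CPM in 4T07 tumors and 539.8, 431 and 375 CPM in 4T1 tumors. Every 4T1 library lay above every 4T07 library, and every 4T07 library above every 67NR library. Krt18 differed by a log2 fold change of 3.93 ± 0.28 (SE, n = 3 per group) for 4T07 against 67NR (edgeR, adjusted p = 9.41e-08) and 6.79 ± 0.29 for 4T1 against 67NR (edgeR, adjusted p = 9.18e-10). Between 4T1 and 4T07 it was 2.86 ± 0.22 (edgeR, adjusted p = 7.59e-07).

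Krt8 was measured at 1.34, 1.96 and 0.847 CPM in 67NR, 23.9, 35.9 and 21.2 CPM in 4T07 and 150.3, 142 and 152 CPM in 4T1 tumors. It kept the order of Krt18, again without overlap. Its log2 fold change was 4.02 ± 0.32 for 4T07 against 67NR (edgeR, adjusted p = 1.92e-07), 6.52 ± 0.30 for 4T1 against 67NR (adjusted p = 1.53e-09) and 2.50 ± 0.21 for 4T1 against 4T07 (adjusted p = 2.04e-06).

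Krt7, a further type II keratin of simple epithelia, set the 4T1 tumors apart. It was at 3.76, 6.43 and 0.565 CPM in 67NR, 5.62, 9.62 and 16.4 CPM in 4T07 and 238, 205 and 276 CPM in 4T1 tumors. The 67NR and 4T07 libraries overlapped and their difference was not called (log2 fold change 1.26 ± 0.49, edgeR, adjusted p = 0.0508). In 4T1 tumors Krt7 rose by a log2 fold change of 5.85 ± 0.45 against 67NR (adjusted p = 1.33e-07) and of 4.59 ± 0.39 against 4T07 (adjusted p = 2.37e-06). Krt7 is abundant in lung, and the 67NR tumor with its highest value, library 20, also held 234 CPM of alveolar genes, against 24.2 to 97.3 CPM in the other tumors. The part of these genes in the Krt7 values was not tested.

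Krt19, the type I keratin without a tail domain, followed another pattern. Its levels were 7.79, 4.48 and 5.65 CPM in 67NR, 13.8, 17.4 and 34.4 CPM in 4T07 and 16.8, 22.8 and 20.1 CPM in 4T1 tumors. All 4T07 and 4T1 libraries lay above the 67NR libraries and overlapped with each other. The log2 fold change was 1.61 ± 0.34 for 4T07 (edgeR, adjusted p = 0.00159) and 1.53 ± 0.34 for 4T1 (adjusted p = 0.00295) against 67NR, and -0.08 ± 0.30 between 4T1 and 4T07 (adjusted p = 0.898). Krt20, the keratin of gut epithelium, was at most 1.20 CPM in any tumor and passed no test. Of the 5 simple epithelium keratins, all of them tested, 3 rose in 4T07 tumors and 4 in 4T1 tumors against 67NR. Of all genes tested, 28.9% and 20.7% were called in these 2 comparisons.

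Among the basal keratins, Krt14 was measured at 2.69, 2.52 and 5.36 CPM in 67NR, 4.62, 5.08 and 5.93 CPM in 4T07 and 38.8, 44.1 and 61.7 CPM in 4T1 tumors. The 4T1 tumors stood above both others, which overlapped. Krt14 rose in them by 3.57 ± 0.31 (log2) against 67NR (edgeR, adjusted p = 4.38e-07) and 3.27 ± 0.28 against 4T07 (adjusted p = 2.78e-06).

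Krt5, the type II partner of Krt14, did not follow it. Krt5 was at 1.88, 1.12 and 1.69 CPM in 67NR, 13.6, 9.98 and 8.47 CPM in 4T07 and 6.22, 12.9 and 5.61 CPM in 4T1 tumors. It rose against 67NR in 4T07 (log2 fold change 2.51 ± 0.42, edgeR, adjusted p = 0.000224) and in 4T1 tumors (2.18 ± 0.42, adjusted p = 0.00105), while 4T1 and 4T07 overlapped (-0.34 ± 0.33, adjusted p = 0.54). The third basal member, Krt15, was at 0, 0.280 and 0.847 CPM in 67NR, 3.01, 2.72 and 3.10 CPM in 4T07 and 1.46, 2.05 and 1.30 CPM in 4T1 tumors. It was called in 4T07 against 67NR (2.66 ± 0.68, adjusted p = 0.00585) but not in 4T1 against 67NR (1.84 ± 0.73, adjusted p = 0.0658). Counts of related genes, such as Krt14, Krt16 and Krt17, are uncertain where reads are split between them, which was not tested. In tumors Krt16 reached at most 0.863 CPM and Krt17 at most 2.21 CPM.

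Krt76, a type II keratin of the oral mucosa, had no count in any 67NR or 4T1 tumor and was at 12.0, 35.2 and 35.8 CPM in the 4T07 tumors. Taking 3 counts per library as the floor, it was at least 33.3-fold higher in 4T07 than in 67NR tumors (edgeR, adjusted p = 1.41e-05) and at least 45.9-fold higher than in 4T1 tumors (adjusted p = 2.75e-05). It stayed at or below 0.746 CPM in every scaffold. Krt13, another mucosal keratin, was at most 1.12 CPM in any tumor and passed no test.

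The epidermal keratin Krt10 was measured at 10.8, 12.9 and 28.2 CPM in 67NR, 6.42, 9.07 and 5.93 CPM in 4T07 and 16.6, 15.0 and 8.63 CPM in 4T1 tumors. It was lower in 4T07 than in 67NR tumors (log2 fold change -1.51 ± 0.37, edgeR, adjusted p = 0.00414), the only one of the 3 tumor comparisons in which it was called. Without 67NR library 21 the Krt10 value was -1.01 (adjusted p = 0.0325). Krt77, also a keratin of the epidermis, was at 0, 0 and 6.21 CPM in 67NR tumors, with 1 count over the 4T07 tumors and none in the 4T1 tumors. Its call as lower in 4T07 (edgeR, adjusted p = 0.0394) and in 4T1 tumors (adjusted p = 0.0271) rests on 67NR library 21, the tumor that also held the skin genes and the highest Krt10 value. The ratio of 67NR to 4T07 was 28.5, with a 95% counting interval of 4.61 to 1176, and 67NR was at least 3.43-fold above 4T1. Without library 21 Krt77 did not pass the filter for testing. DESeq2 did not call Krt77 in either comparison (adjusted p = 0.318 and 0.247), and in edgeR each call was also lost without any 1 library of the line set against 67NR (adjusted p = 0.0726, 0.112 and 0.0838 without 4T07 library 31, 32 or 33, and 0.0661, 0.0642 and 0.0592 without 4T1 library 43, 44 or 45).

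Krt80, a type II keratin found in many epithelia, was at 8.60, 16.8 and 15.8 CPM in 67NR, 10.0, 13.4 and 6.49 CPM in 4T07 and 6.58, 8.20 and 7.55 CPM in 4T1 tumors. It was lower in 4T1 than in 67NR tumors (log2 fold change -1.09 ± 0.32, edgeR, adjusted p = 0.017). This call was lost without 67NR library 20 (-0.89, adjusted p = 0.0832), without 67NR library 21 (-1.01, adjusted p = 0.0521) and without 4T1 library 43 (-1.06, adjusted p = 0.0552). Scaling by library totals alone also ended it (-0.88), since that scaling moved the median of all genes from 0.09 to 0.28 in this comparison and from 0.16 to 0.41 in 4T07 against 67NR tumors.

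Krt23, another type I keratin, was at 0, 0.839 and 0.282 CPM in 67NR, 1.81, 2.72 and 4.80 CPM in 4T07 and 0.549, 1.84 and 2.16 CPM in 4T1 tumors. It rose in 4T07 against 67NR tumors (log2 fold change 2.70 ± 0.81, edgeR, adjusted p = 0.015), a call that was lost without 67NR library 21 (2.51, adjusted p = 0.0523) or 4T07 library 33 (2.28, adjusted p = 0.0518). Krt13, Krt17, Krt20 and Krt79 were also tested in tumors, reached at most 2.21 CPM and were not called. The remaining 34 members did not pass the filter in tumors.

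**Figure D2:**
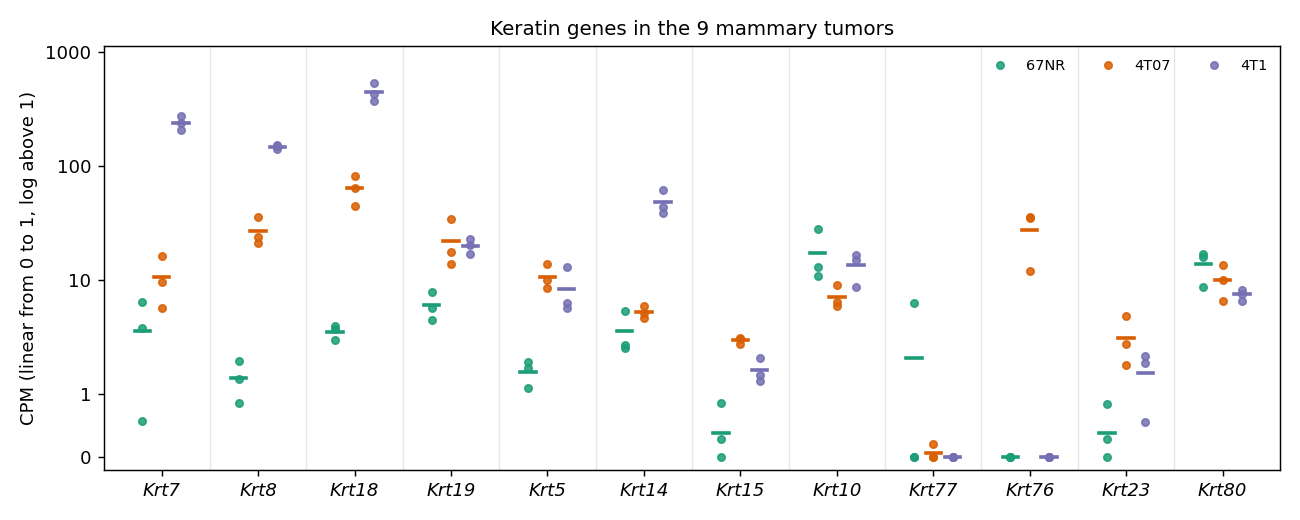
Levels of keratins in the primary tumors in CPM, on an axis that is linear from 0 to 1 and logarithmic above. Points are the 3 libraries of each line and bars are group means. Krt18 steps from 3.51 CPM in 67NR to 63.7 CPM in 4T07 and 449 CPM in 4T1, whereas Krt76 stands at 27.7 CPM in 4T07 and at 0 in the others.

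Of 15 tested linker and desmosome genes, whose products attach to keratin filaments, 8 rose and none fell in 4T07 against 67NR tumors, with a median log2 fold change of 1.75 against 0.16 over all genes tested, of which 28.9% were called. In 4T1 against 67NR tumors 11 rose and none fell (median 2.94, against 0.09 over all genes, 20.7% called), and in 4T1 against 4T07 tumors 5 rose and none fell (median 0.66, against -0.05, 8.61% called). Desmoplakin (Dsp), which ties keratins to desmosomes, was at 3.49, 3.36 and 9.03 CPM in 67NR, 19.5, 19.6 and 14.7 CPM in 4T07 and 91.6, 85.1 and 91.5 CPM in 4T1 tumors.

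Of 12 epithelial adhesion genes, all of which were tested, 6 rose in 4T07 and 10 in 4T1 against 67NR tumors, and 9 in 4T1 against 4T07 tumors, and none fell in these comparisons. Their median log2 fold changes were 1.90, 4.97 and 2.67, against 0.16, 0.09 and -0.05 over all genes tested, of which 28.9%, 20.7% and 8.61% were called. Epcam, an epithelial adhesion molecule, was at 4.84, 6.99 and 2.26 CPM in 67NR, 18.3, 22.0 and 24.8 CPM in 4T07 and 207, 203 and 235 CPM in 4T1 tumors, without overlap of the lines. Cdh1, which encodes E-cadherin, was at 8.60, 13.7 and 4.52 CPM, then 59.8, 71.7 and 62.1 CPM, then 159, 169 and 158 CPM in the same order. Cldn4, a tight junction claudin, was at 1.41 to 3.49 CPM in 67NR, 3.63 to 5.08 CPM in 4T07 and 158 to 161 CPM in 4T1 tumors.

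Among 15 tested epithelial transcription and splicing factors, 8 rose in 4T07 and 9 in 4T1 against 67NR tumors, and none fell. Between 4T1 and 4T07 tumors 4 rose (Grhl2, Klf5, Ovol2 and Esrp1) and 2 fell (Klf4 and Ehf). The median log2 fold changes were 1.55, 1.98 and -0.01 in these 3 comparisons, beside the same medians and shares over all genes as for the adhesion genes. Grhl2, a grainyhead factor of epithelia, was at 1.68 to 2.42 CPM in 67NR, 1.20 to 2.36 CPM in 4T07 and 13.9 to 20.3 CPM in 4T1 tumors. The mesenchymal filament gene Vim was not called between any of the tumors. Its levels were 1184 to 2089 CPM in 67NR, 1132 to 1230.0 CPM in 4T07 and 1763 to 2006 CPM in 4T1 tumors.

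The tissues of tumor-free mice gave the baseline for the other comparisons. Of 16 keratins tested between them with the thresholds of the tumors, 7 were higher and 2 lower in control lung than in control spleen, where 36.8% of all genes were called. Between control scaffold and control lung 5 were higher and 7 lower in scaffold (all genes 30.0%), and between control scaffold and control spleen 7 were higher and 1 lower in scaffold (all genes 31.5%). Krt7, Krt8, Krt18 and Krt19 were higher in control lung than in both other tissues, and Krt20 was lower in it than in both. Krt7 averaged 233 ± 36.2 CPM (SD, n = 3) in control lung, 4.96 ± 1.20 CPM in control scaffold and 3.13 ± 1.58 CPM in control spleen.

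Lung exceeded spleen by a log2 fold change of 6.18 ± 0.27 for Krt7 (edgeR, adjusted p = 1.94e-10), 7.07 ± 0.75 for Krt8, 5.99 ± 0.65 for Krt18, 4.37 ± 0.49 for Krt19, 4.99 ± 0.60 for Krt79 and 4.18 ± 0.21 for Krt80. Krt23 averaged 37.9 ± 2.18 CPM in control lung and had no count in control spleen. In the opposite direction, Krt222, a short keratin-like gene, averaged 3.36 ± 0.850 CPM in spleen and 0.348 ± 0.181 CPM in lung (log2 fold change -3.25 ± 0.54, adjusted p = 0.000149). Krt20 was also lower in lung than in spleen (-3.73 ± 0.78, adjusted p = 0.00103).

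Krt5, Krt14, Krt17, Krt20 and Krt36 were higher in control scaffolds, which lie under the skin, than in control lung, while the basal Krt15 was not called (log2 fold change 0.85 ± 0.75, edgeR, adjusted p = 0.393). The log2 fold change of scaffold against lung was 4.79 ± 1.01 for Krt5 (edgeR, adjusted p = 0.00179), 3.70 ± 0.83 for Krt14, 3.63 ± 0.99 for Krt17, 3.81 ± 0.77 for Krt20 and 4.30 ± 1.00 for Krt36. Krt7, Krt8, Krt18, Krt19, Krt23, Krt79 and Krt80 were lower in scaffold, as in Krt7 (-5.33 ± 0.25) and Krt80 (-4.30 ± 0.21). Against spleen, scaffold was higher for Krt5, Krt8, Krt15, Krt17, Krt18, Krt23 and Krt36. The calls of Krt15 and Krt17 against spleen were lost in DESeq2 (adjusted p = 0.0535 and 0.0615) and without control spleen library 8 (edgeR, adjusted p = 0.0876 and 0.0516). That of Krt15 was also lost without control scaffold library 3 (log2 fold change 1.50, adjusted p = 0.311) or control spleen library 7 (2.14, adjusted p = 0.105).

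Lungs, a site to which 4T1 tumors spread, were compared between tumor-bearing and control mice with calls at an adjusted p below 0.10 and more than 2-fold. Krt7, Krt8, Krt18 and Krt19, which are 4 of the 5 simple epithelium keratins, were lower in the lungs of 4T07-bearing mice than in those of control and of 4T1-bearing mice, whereas 17 of the 19 keratins tested were not called between lungs of 4T1-bearing and control mice. Of 19 keratins tested, 2 were higher and 7 lower in 4T07 against control lungs (all genes 29.0%), 1 was higher and 1 lower in 4T1 against control lungs (all genes 4.61%), and 6 were higher and 3 lower in 4T1 against 4T07 lungs (all genes 23.5%). In 67NR against control lungs 5 were higher and 1 lower (all genes 4.25%).

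Krt7 was at 244, 192 and 262 CPM in control, 294, 336 and 299.8 CPM in 67NR, 105, 66.9 and 152 CPM in 4T07 and 276, 263 and 285 CPM in 4T1 lungs. The 4T07 lungs lay below all others. It changed by a log2 fold change of -1.04 ± 0.21 against control (edgeR, adjusted p = 0.000298), and 4T1 lungs were higher than 4T07 lungs by 1.30 ± 0.21 (adjusted p = 3.85e-05). The fold against control came to 2 or less without control library 4 (-0.97), control library 6 (-0.96), 4T07 library 25 (-0.997) or 4T07 library 26 (-0.79).

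Krt18 was at 70.8, 56.8 and 43.1 CPM in control, 58.2, 39.0 and 36.3 CPM in 67NR, 14.4, 9.70 and 22.8 CPM in 4T07 and 39.0, 37.7 and 52.2 CPM in 4T1 lungs. Its partner Krt8 was at 12.9, 15.7 and 10.5 CPM, 9.58, 18.0 and 16.5 CPM, 3.18, 1.65 and 6.07 CPM, and 8.21, 7.06 and 9.89 CPM in the same groups. For both genes every 4T07 lung lay below every other lung. Against control, Krt18 fell by 1.81 ± 0.26 (log2, edgeR, adjusted p = 8.94e-06) and Krt8 by 1.78 ± 0.34 (adjusted p = 0.000239) in 4T07 lungs. In 4T1 against 4T07 lungs Krt18 was higher by 1.41 ± 0.26 (adjusted p = 0.000194) and Krt8 by 1.16 ± 0.35 (adjusted p = 0.0126), of which the Krt8 call was lost for a fold of no more than 2 without 4T07 library 26 (0.80) or 4T1 library 39 (1.00).

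Krt19 was measured at 53.2, 59.9 and 59.4 CPM in control, 59.6, 92.1 and 82.6 CPM in 67NR, 21.8, 12.8 and 24.1 CPM in 4T07 and 43.1, 43.8 and 45.0 CPM in 4T1 lungs. The 4T07 lungs were again lowest, and the 4T1 lungs lay between them and the controls without overlap. Against control the log2 fold change was -1.49 ± 0.20 in 4T07 (edgeR, adjusted p = 3.46e-06) and -0.37 ± 0.18 in 4T1 lungs, the latter not called (adjusted p = 0.253). Krt19 was higher in 4T1 than in 4T07 lungs (1.12 ± 0.20, adjusted p = 0.000133), by less than 2-fold without 4T07 library 26 (0.88).

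Krt23 was at 38.4, 35.5 and 39.8 CPM in control, 36.6, 40.0 and 36.7 CPM in 67NR, 10.6, 7.23 and 20.4 CPM in 4T07 and 23.7, 20.9 and 27.6 CPM in 4T1 lungs. It fell by 1.52 ± 0.24 in 4T07 against control lungs (log2, edgeR, adjusted p = 2.72e-05). In 4T1 against control lungs its change of -0.64 ± 0.22 (adjusted p = 0.0825) did not reach 2-fold, though every 4T1 lung lay below every control lung.

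Krt79, a type II keratin known from the upper hair follicle and the sebaceous duct, was at 15.3, 26.3 and 9.39 CPM in control, 4.79, 12.2 and 5.21 CPM in 67NR, 0.847, 1.45 and 2.60 CPM in 4T07 and 7.89, 6.50 and 7.35 CPM in 4T1 lungs. It was the only keratin called lower in the lungs of all 3 tumor-bearing groups, which share the control libraries. The log2 fold change against control was -1.29 ± 0.36 in 67NR (edgeR, adjusted p = 0.03), -3.31 ± 0.46 in 4T07 (adjusted p = 6.29e-06) and -1.21 ± 0.35 in 4T1 lungs (adjusted p = 0.0407). Without control library 5, the highest of them, the calls in 67NR (-0.84, adjusted p = 0.224) and 4T1 lungs (-0.78, adjusted p = 0.295) were lost. The call in 67NR lungs was also lost without 67NR library 15 (adjusted p = 0.155), and that in 4T1 lungs without 4T1 library 38 (-1.15, adjusted p = 0.164).

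Krt80 was at 67.6, 69.2 and 81.6 CPM in control, 78.3, 108 and 79.6 CPM in 67NR, 21.6, 20.6 and 42.5 CPM in 4T07 and 89.0, 80.9 and 97.9 CPM in 4T1 lungs. It fell by 1.30 ± 0.22 in 4T07 against control lungs (log2, edgeR, adjusted p = 5.23e-05) and was higher in 4T1 than in 4T07 lungs by 1.61 ± 0.22 (adjusted p = 5.3e-06). Krt10, by contrast, was at 7.21 to 10.5 CPM in control and 4.75 to 8.47 CPM in 4T07 lungs, and was not called in any lung comparison.

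The summed markers of the lung epithelium were also lowest in the 4T07 lungs. The 10 alveolar genes summed to 27906, 24629 and 25266 CPM in control, 6440.3, 3878 and 7639 CPM in 4T07 and 20388, 18271 and 22927 CPM in 4T1 lungs, and the 10 airway genes to 15650.1, 20557 and 21407 CPM in control and 8538, 3588 and 11329 CPM in 4T07 lungs. A list of 6 leukocyte genes stood at 1766, 2051 and 1803 CPM in 4T07 lungs, against 1014, 1033 and 786 CPM in control and 1771, 2059 and 1315 CPM in 4T1 lungs. Library 26 was the lowest 4T07 lung and library 27 the highest for Krt7, Krt8, Krt18, Krt19, Krt23 and Krt80, as for the alveolar list, while Krt79 was lowest in library 25. The part of cell composition in the keratin values was not tested.

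Epithelial partner genes were called in both directions in these lungs. Epcam was at 68.9, 78.1 and 65.5 CPM in control and 17.4, 10.7 and 23.2 CPM in 4T07 lungs (log2 fold change -1.99 ± 0.21, edgeR, adjusted p = 1.27e-07). Of the epithelial adhesion genes 6 of 12 fell and 1, Cdh3, rose, with a median of -1.09, and of 14 tested epithelial transcription and splicing factors 8 fell and none rose, with a median of -1.30, against -0.01 over all genes tested, of which 29.0% were called. Of 16 linker and desmosome genes 5 fell (Eppk1, Ppl, Jup, Pkp2 and Perp) and 2 rose (Dsc2 and Dsc3), with a median of -0.48.

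**Figure D3:**
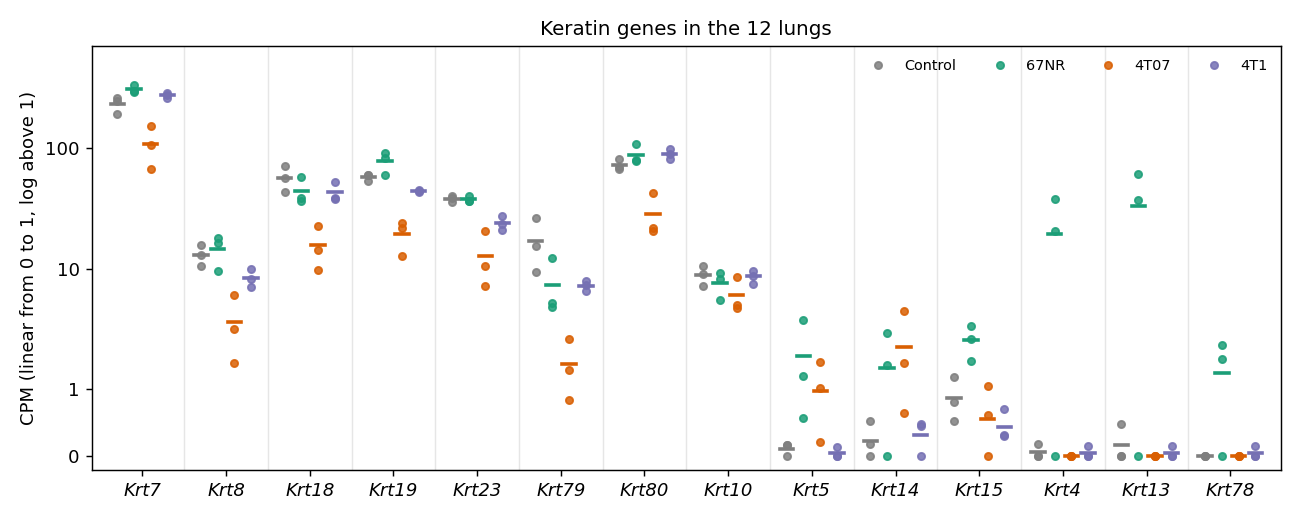
Levels of keratins in the lungs in CPM, on an axis that is linear from 0 to 1 and logarithmic above. Points are the 3 libraries of each group and bars are group means. For Krt7, Krt8, Krt18, Krt19, Krt23, Krt79 and Krt80 the 4T07 lungs lie below every other group, and Krt4 and Krt13 stand above the others in 2 of 3 67NR lungs.

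Of the 3 basal keratins, Krt14 and Krt5 were called higher in 4T07 lungs, at low levels, and Krt15 was not called (1.06, 0.619 and 0 CPM in 4T07 lungs, log2 fold change -0.53 ± 0.71 against control, edgeR, adjusted p = 0.584). Krt14 was at 0.523, 0.180 and 0 CPM in control, 0, 2.92 and 1.59 CPM in 67NR, 4.45, 1.65 and 0.651 CPM in 4T07 and 0.483, 0 and 0.450 CPM in 4T1 lungs. It was higher in 4T07 than in control lungs (log2 fold change 3.24 ± 1.03, edgeR, adjusted p = 0.0141) and lower in 4T1 than in 4T07 lungs (-2.86 ± 0.95, adjusted p = 0.0213). Krt5 was at 0.174, 0 and 0.162 CPM in control, 0.575, 1.30 and 3.76 CPM in 67NR, 1.69, 1.03 and 0.217 CPM in 4T07 and 0, 0.141 and 0 CPM in 4T1 lungs. Its ratio of 4T07 to control was 8.62, with a 95% counting interval of 1.98 to 78.2 (edgeR, adjusted p = 0.0303), and its ratio of 4T07 to 4T1 was 19.7, with an interval of 3.00 to 834 (adjusted p = 0.0127). Without 4T07 library 25, which also held 1.69 CPM of Krt77, the calls against control were lost for Krt14 (adjusted p = 0.136) and Krt5 (adjusted p = 0.152), as was the call of Krt14 between 4T1 and 4T07 (-1.96, adjusted p = 0.199).

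In 67NR lungs the squamous keratins Krt4 and Krt13, which pair in the lining of mouth and esophagus, appeared in 2 of 3 libraries. Krt4 was at 0, 20.6 and 37.9 CPM in 67NR lungs and at most 0.180 CPM in any other lung. Krt13 was at 0, 37.2 and 61.5 CPM in 67NR lungs and at most 0.486 CPM elsewhere in lung. Library 13 therefore had neither, and libraries 14 and 15 had both. The ratio of 67NR to control was 371 for Krt4, with a 95% counting interval of 66.3 to 14705 (edgeR, adjusted p = 0.00259), and 208 for Krt13, with an interval of 70.9 to 1012 (adjusted p = 0.00245). Of the 6 keratins called in this comparison, DESeq2 called Krt4 and Krt79, did not call Krt13 (adjusted p = 0.222) and gave no adjusted p for Krt5, Krt15 and Krt78.

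Krt78, a further type II keratin of stratified epithelia, was at 0, 1.79 and 2.31 CPM in 67NR lungs and had no count in control lungs, at least 2.65-fold higher (edgeR, adjusted p = 0.027). Krt5 was 17.7 times the control level, with an interval of 4.56 to 151 (adjusted p = 0.0172). Krt15 was at 0.523, 1.26 and 0.809 CPM in control and 1.72, 2.60 and 3.33 CPM in 67NR lungs (log2 fold change 1.46 ± 0.52, adjusted p = 0.0922). Of these calls, those of Krt5, Krt15 and Krt78 were lost without library 15 (adjusted p = 0.160, 0.311 and 0.121), and that of Krt15 was lost also without control library 4, 5 or 6 (adjusted p = 0.298, 0.125 and 0.158) or 67NR library 14 (adjusted p = 0.171).

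Libraries 14 and 15 differed from library 13 in other genes of squamous tissue. The cornified envelope list summed to 30.3, 92.1 and 152 CPM in the 67NR lungs, against 32.9, 33.7 and 43.1 CPM in control lungs, and skeletal muscle genes to 5.94, 49.5 and 143 CPM. Sprr3, a cornified envelope gene of the esophagus, was at 0, 11.4 and 23.7 CPM, and Lor, which encodes the epidermal protein loricrin, at 0.383, 23.9 and 51.9 CPM. Without libraries 14 and 15, Krt4, Krt13 and Krt78 did not pass the filter for testing, so their calls could not be made again. The log2 fold change against control was then 2.03 for Krt5, 0.88 for Krt15 and -1.93 for Krt79. That fit keeps 1 67NR lung library, library 13, which is assumed to vary like the other groups. It therefore cannot show whether these 3 calls depend on libraries 14 and 15. What these 2 libraries share was not tested.

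In 4T1 against control lungs the other called member was Krt86, a hair keratin, with 14 counts against 1 and at most 1.13 CPM in any library (ratio 12.2, 95% counting interval 1.86 to 518, edgeR, adjusted p = 0.0818). The call was lost without control library 5 or 6 (adjusted p = 0.252 and 0.175) or 4T1 library 37 or 38 (adjusted p = 0.177 and 0.347). Krt20 was called lower in 4T1 than in 4T07 lungs with 1 count against 7 (adjusted p = 0.0577) and this was lost in DESeq2 (adjusted p = 0.114) and without 4T07 library 25 or 4T1 library 37 or 38 (edgeR, adjusted p = 0.138, 0.141 and 0.154).

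The scaffold was designed as a place to sample cells that tumors affect from afar, and scaffolds of tumor-bearing and control mice were compared with calls at an adjusted p below 0.10 and more than 2-fold. Of 23 keratins tested, none was called in 67NR against control scaffolds (edgeR, 0 at an unadjusted p under 0.05, and 0 in DESeq2, with 0% of all genes called) or in 4T1 against control scaffolds (edgeR, 0 at an unadjusted p under 0.05, and 0 in DESeq2, with 0.0226% of all genes called). In 4T07 against control scaffolds 1 was higher (all genes 7.44%), and in 4T1 against 4T07 scaffolds 1 was lower (all genes 1.00%). Both calls concerned Krt77. Without 4T07 library 22 the call against control was also made, but on 13 counts in library 23 and 1 in library 24, against none in controls.

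Krt77 had no count in control and 67NR scaffolds, was at 24.3, 2.56 and 0.155 CPM in 4T07 scaffolds and at 0, 0.186 and 0.180 CPM in 4T1 scaffolds. Its mean in 4T07 scaffolds was at least 17.2-fold above control scaffolds (edgeR, adjusted p = 0.0172). That bound rests on library 22, which held 199 of the 213 counts, while library 24 held 1 count and lay below the floor. Without library 22 the log2 fold change was 5.89 (edgeR, adjusted p = 0.0501). The ratio of 4T07 to 4T1 was 92.2, with a 95% counting interval of 25.2 to 766 (adjusted p = 0.0971). That second call was lost without 4T07 library 22 (adjusted p = 0.285), without 4T07 library 23 (adjusted p = 0.144) and without 4T1 library 34, 35 or 36 (adjusted p = 0.160, 0.161 and 0.217).

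Library 22 also held the highest values of the basal keratins. Krt14 was at 1.68, 0.950 and 5.82 CPM in control, 0.185, 1.77 and 2.13 CPM in 67NR, 19.9, 4.13 and 2.17 CPM in 4T07 and 4.90, 4.29 and 1.62 CPM in 4T1 scaffolds. Krt5 was at 1.47, 0.950 and 7.40 CPM, 0, 0.963 and 2.95 CPM, 15.9, 6.09 and 3.26 CPM, and 3.43, 9.70 and 0.898 CPM in the same groups. Krt15 was at 16.4, 1.38 and 0.311 CPM in 4T07 scaffolds and at most 2.83 CPM in the others. The groups overlapped for all 3 genes. The log2 fold changes of 4T07 against control were 1.49 ± 0.72 for Krt14 (edgeR, adjusted p = 0.208), 1.22 ± 0.79 for Krt5 (adjusted p = 0.371) and 2.03 ± 1.00 for Krt15 (adjusted p = 0.215).

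Krt10 was at 4.61, 6.81 and 5.35 CPM in control, 6.65, 6.42 and 6.39 CPM in 67NR, 22.1, 9.63 and 5.13 CPM in 4T07 and 6.04, 8.76 and 7.00 CPM in 4T1 scaffolds. Its log2 fold change in 4T07 against control was 1.00 ± 0.38 (edgeR, adjusted p = 0.0975), not over 2-fold. Krt1, its type II partner in the epidermis, reached 1.59 CPM in library 22. Without 4T07 library 24, in which the epidermal keratins were low, 4 members were called against control (Krt10, Krt14, Krt15 and Krt77). That fit kept library 22, which held the highest scaffold level of each of these 4 genes.

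Library 22 carried genes of skin beside these keratins. The cornified envelope list summed to 139 CPM there, against at most 12.8 CPM in the other scaffolds. Lor was at 31.8 CPM and Krtdap, a secreted protein of differentiating keratinocytes, at 44.9 CPM. Skeletal muscle genes summed to 519 CPM in library 22 and to 3.36 to 344 CPM in the other scaffolds. The part of skin at the scaffold in the keratin values was not tested.

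None of Krt7, Krt8, Krt18, Krt19 and Krt20 was called in the 4 scaffold comparisons tested, which do not include 4T07 against 67NR. Krt18 was at 5.66, 2.06 and 17.2 CPM in control, 1.85, 1.60 and 13.3 CPM in 67NR, 9.54, 16.1 and 9.63 CPM in 4T07 and 14.4, 4.29 and 6.46 CPM in 4T1 scaffolds. Krt19 was at 3.36, 1.58 and 10.2 CPM, 1.66, 2.41 and 7.86 CPM, 4.77, 5.90 and 4.04 CPM, and 6.04, 8.02 and 2.51 CPM in the same groups. Both genes were highest in control library 3 among controls and in library 12 among 67NR scaffolds, the libraries in which a list of 10 mammary luminal genes was also highest within its group (79.3 and 92.4 CPM). Krt7 was steadier, at 3.99 to 6.30 CPM in control, 3.69 to 5.54 CPM in 67NR, 6.12 to 7.92 CPM in 4T07 and 4.85 to 6.90 CPM in 4T1 scaffolds. Krt8 reached at most 3.15 CPM, Krt79 at most 5.87 CPM and Krt80 at most 5.99 CPM, and none of them was called.

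**Figure D4:**
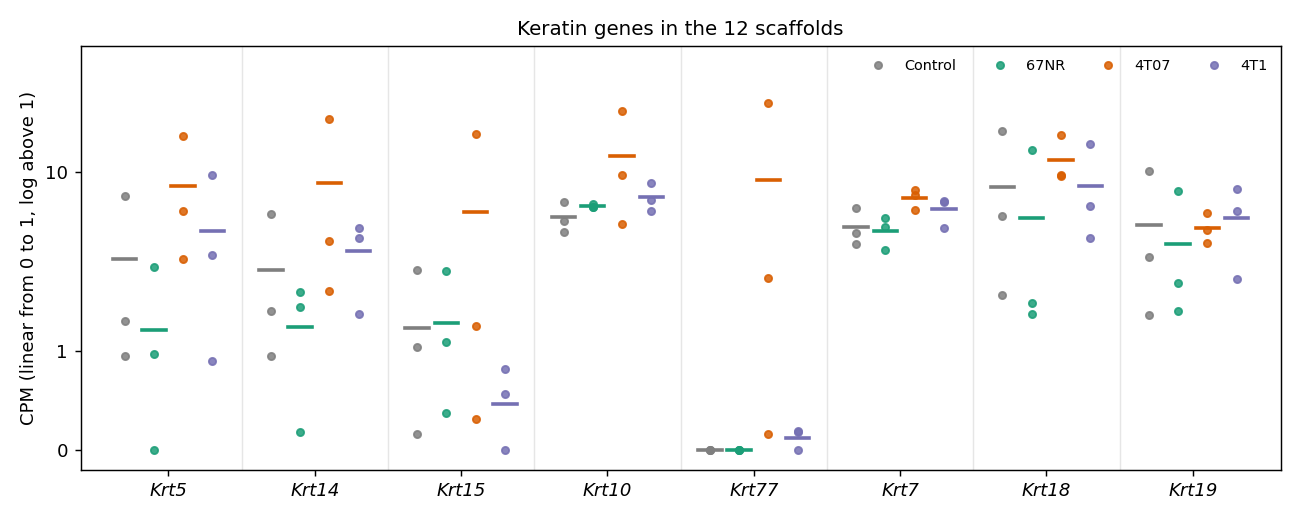
Levels of keratins in the scaffolds in CPM, on an axis that is linear from 0 to 1 and logarithmic above. Points are the 3 libraries of each group and bars are group means. A single 4T07 library lies far above the others for Krt77 (24.3 CPM) and Krt15 (16.4 CPM), and the groups overlap for Krt18 and Krt19.

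The spleen holds few epithelial cells, and keratin levels there were low, with sums of 14.9 to 30.6 CPM over the 50 genes. Of 13 keratins tested, 1 was higher and 2 lower in 4T07 against control spleens (all genes 18.6%), and 1 was higher and 3 lower in 4T1 against control spleens (all genes 19.9%). None was called in 67NR against control spleens (edgeR, 0 at an unadjusted p under 0.05, and 0 in DESeq2, with 2.26% of all genes called). None was called in 4T1 against 4T07 spleens (edgeR, 3 at an unadjusted p under 0.05, and 0 in DESeq2, with 2.33% of all genes called).

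Krt80 was at 4.08, 3.46 and 4.10 CPM in control, 3.77, 3.83 and 5.16 CPM in 67NR, 6.59, 4.83 and 3.44 CPM in 4T07 and 7.19, 6.86 and 9.37 CPM in 4T1 spleens. The 4T1 spleens lay above all others. The log2 fold change of 4T1 against control was 1.26 ± 0.29 (edgeR, adjusted p = 0.00362).

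Krt222 was at 4.27, 3.23 and 2.59 CPM in control, 4.19, 3.32 and 2.47 CPM in 67NR, 0.618, 1.55 and 1.15 CPM in 4T07 and 1.20, 1.71 and 1.14 CPM in 4T1 spleens. Both of the latter groups lay below control and 67NR spleens. The log2 fold change against control was -1.40 ± 0.44 in 4T07 (edgeR, adjusted p = 0.0277) and -1.06 ± 0.43 in 4T1 spleens (adjusted p = 0.0797), and the 4T07 call was lost without 4T07 library 28 (-1.07, adjusted p = 0.115). The 4T1 call was lost in DESeq2 (adjusted p = 0.137), without control library 7 or 8 (edgeR, adjusted p = 0.223 and 0.124) and without 4T1 library 40 or 42 (adjusted p = 0.188 and 0.186). Krt222 overlaps the predicted gene Gm32385 in RefSeq, and counts of overlapping genes are uncertain.

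Krt19 was at 1.17, 1.85 and 5.17 CPM in control and 0.412, 0.345 and 0.859 CPM in 4T07 spleens (log2 fold change -2.20 ± 0.65, edgeR, adjusted p = 0.02). The call was lost without control library 9 (-1.37, adjusted p = 0.150). Krt20 was at 2.14, 1.85 and 1.29 CPM in control and 0.240, 0.979 and 0.228 CPM in 4T1 spleens (-1.59 ± 0.60, adjusted p = 0.0589), a call lost without control library 7 or 8 (adjusted p = 0.147 and 0.114) or 4T1 library 40 or 42 (adjusted p = 0.188 and 0.191). Krt5 had no count in control spleens and 10 counts over the 4T07 spleens, at least 1.09-fold higher (adjusted p = 0.018), and Krt79 was at or under the floor of 3 counts in control and 4T1 spleens on average, so no fold is given (adjusted p = 0.0926, and 0.106 to 0.179 when any 1 control or 4T1 library was left out). Krt10 was at 6.41 to 7.98 CPM in control spleens and was not called. In DESeq2, 1 of the 4 calls in 4T1 against control spleens was made.

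The 4T1 and 4T07 lines were then compared across tissues, to ask whether the difference between them was the same in the tumor, the lung and the scaffold. Krt7, Krt8 and Krt18 were higher with 4T1 than with 4T07 in both tumor and lung, with log2 fold changes of 4.59, 2.50 and 2.86 in the tumor and 1.30, 1.16 and 1.41 in the lung. In scaffolds their log2 fold changes were -0.18 ± 0.25, -0.93 ± 0.74 and -0.43 ± 0.68, none of them called (edgeR, adjusted p = 0.803, 0.601 and 0.825). The difference between tissues was tested in a fit of all 45 libraries, with 33 keratins tested. A call here, also for the shares of all genes, required an adjusted p below 0.10 and no minimum fold.

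Against the scaffold, the difference between 4T1 and 4T07 was larger in the tumor for Krt7 by 4.81 ± 0.44 (log2, edgeR, adjusted p = 2.63e-10), for Krt14 by 4.60 ± 0.81 (adjusted p = 0.000172), for Krt8 by 3.48 ± 0.71 (adjusted p = 0.00139) and for Krt18 by 3.34 ± 0.63 (adjusted p = 0.000449). In all, 6 keratins were called for tumor against scaffold (all genes 5.69%), among them Krt10 and Krt76. For lung against scaffold 7 were called (all genes 16.9%), each with a higher value in lung, namely Krt7, Krt8, Krt10, Krt18, Krt23, Krt79 and Krt80. Krt80 differed by 2.11 ± 0.41 (adjusted p = 0.000312). Without 4T07 scaffold library 22 the calls of Krt10 in both comparisons (edgeR, adjusted p = 0.321 for tumor and 0.558 for lung), and of Krt23 and Krt79 for lung (adjusted p = 0.757 and 0.241), were lost, and Krt14 and Krt222 were called in addition for lung, with lower values there. The tumor value of Krt14 became 3.08 (adjusted p = 0.0218). For spleen against scaffold none was called (edgeR, 1 at an unadjusted p under 0.05, and 0 in DESeq2, with 1.22% of all genes called).

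Krt14 showed opposite directions in tumor and lung. It was higher with 4T1 than with 4T07 in the tumors and lower in the lungs, each of which was called in its own comparison, and the difference between those tissues was not tested. In the lungs the call rests on 4T07 library 25.

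**Figure D5:**
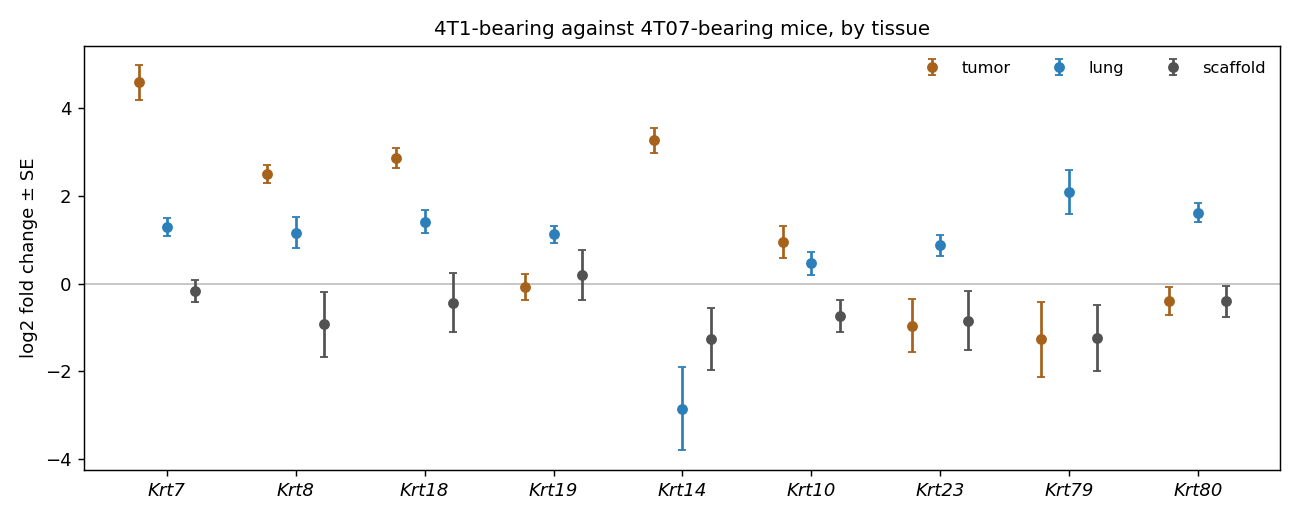
Log2 fold change of 4T1 against 4T07 with its standard error for 9 keratins in tumor, lung and scaffold. The tumor values of Krt7 (4.59), Krt14 (3.27), Krt18 (2.86) and Krt8 (2.50) lie far above the scaffold values, and Krt14 lies below 0 in the lung (-2.86).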

How the data were processed

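The authors sequenced 3′ tags (QuantSeq, with an add-on for unique molecular identifiers) and deposited 1 table of raw counts per gene symbol for the 45 libraries. The submitters' processing notes name Trim Galore 0.5.0, STAR 2.6.0 and featureCounts. The genome build, annotation, strand setting and collapsing of identifiers are not given in the sources used here. Symbols on 120 repeated lines were summed, and samples were grouped by their titles. No 2 of 45 replicate pairs were identical (chi-square per degree of freedom 3.88 to 36.0).

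Counts were fitted per tissue with the quasi-likelihood F test of edgeR 4.0.16 in R 4.3.3 with TMM scaling, for genes whose counts in the tissue summed to more than 10. All groups of the tissue entered the fit. Adjusted p-values (Benjamini-Hochberg over all genes) were called under 0.05 for tumors and control tissues and under 0.10 elsewhere. Except in the interaction, changes also had to exceed 2-fold. How 4T1 and 4T07 differed between tissues was an interaction in a fit of all libraries, called with no fold threshold. Standard errors are the absolute log2 fold change divided by the square root of F. CPM are counts per 1000000 counts of the library. Where a group had no count, a floor of 3 counts per library, averaged over the group, gave the bound. Ratios with 1 to 3 counts carry 95% counting intervals. Intervals and floors cover counting error only. Totals were 3491888 to 8175380 counts, so 3 counts were 0.367 to 0.859 CPM.

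Members described library by library had a group mean of at least 5 CPM in the tissue, or passed a test there with a library of at least 2 CPM. The members, marker lists and partner lists were chosen with earlier results of these data known. DESeq2 1.42.0, DESeq2 size factors, no count filter, only the groups compared and leaving out each library were tried as alternatives. Fitting only the groups compared and leaving out each library were not tried for the interaction. Library totals without TMM, fits without 67NR lung libraries 14 and 15 and without 4T07 scaffold library 22, and the squamous mucosa list were chosen after seeing the data. With 3 against 3 libraries an exact permutation test cannot go below p = 0.1, so none was used. The fits were also run on simulated counts, in which only genes with higher mean counts were changed. That run does not cover calls that rest on a few counts or on 1 library. Start site sequences are from RefSeq, with 35 of 50 members matched.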

Additional observations from a re-analysis of the deposited data

Results flagged for a closer look

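The difference between 4T1-bearing and 4T07-bearing mice was not the same in every tissue for 9 keratins, by an interaction term in a fit of all 45 libraries (edgeR, adjusted p under 0.10). Values are the log2 fold change of 4T1 against 4T07 in the first tissue minus that in the scaffold. Between tumor and scaffold it was 4.81 for Krt7 (adjusted p = 2.63e-10), 3.48 for Krt8 (adjusted p = 0.00139), 1.75 for Krt10 (adjusted p = 0.029), 4.60 for Krt14 (adjusted p = 0.000172) and 3.34 for Krt18 (adjusted p = 0.000449). Krt76 had a fitted value of -10.94 (adjusted p = 9.13e-06), which is no bound, since all 4T1 tumors were at 0.

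Between lung and scaffold the value was 1.54 for Krt7 (adjusted p = 0.00818), 2.17 for Krt8 (adjusted p = 0.0487), 1.29 for Krt10 (adjusted p = 0.0862), 1.91 for Krt18 (adjusted p = 0.0413), 1.83 for Krt23 (adjusted p = 0.0784), 3.44 for Krt79 (adjusted p = 0.00724) and 2.11 for Krt80 (adjusted p = 0.000312). The scaffold side of these values includes 4T07 library 22, whose Krt10 level was 22.1 CPM. Without that library Krt10 was called neither for tumor against scaffold (0.99, adjusted p = 0.321) nor for lung against scaffold (0.53, adjusted p = 0.558). The calls of Krt23 (0.60, adjusted p = 0.757) and Krt79 (1.94, adjusted p = 0.241) for lung against scaffold were also lost, the other 9 calls were made again, and Krt14 and Krt222 were called in addition, with lower values in lung. Among the 4T07 lungs, Krt7, Krt8, Krt18, Krt23 and Krt80 were lowest in library 26 and highest in library 27. The alveolar and airway sums were lowest and highest in the same libraries. Krt79 was lowest in library 25, and Krt10 was highest there. The part of the alveolar and airway genes in the keratin values was not tested.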

How the results depend on the processing

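Of 21 counts of called keratins, 15 stayed within 1.5 times under every alternative. Of 99 called member results, 69 kept their direction and call in every alternative that gave them an adjusted p. Another 30 lost the call under at least 1 alternative, and 0 reversed. An alternative in which a gene failed the count filter or had no adjusted p was not counted. In 4T07 against control scaffolds, where 1 was called, 6 were called without a count filter, 2 without TMM factors and 1 to 4 with 1 library left out. In 4T1 against 4T07 scaffolds, where 1 was called, 0 were called in DESeq2, without TMM factors or with only the groups compared, 4 without a filter and 0 to 1 with 1 library left out. In 67NR against control lungs the count of 6 became 2 in DESeq2 and 2 to 7 with 1 library left out. Leaving out libraries 14 and 15 keeps 1 67NR library, assumed to vary like the other groups. Krt4, Krt13 and Krt78 failed the filter in that fit, and no count is given for it. In 4T1 against control lungs the count of 2 became 1 in DESeq2 and 0 to 2 with 1 library left out. In 4T07 against control spleens the 3 calls became 1 to 3, and in 4T1 against control spleens the 4 calls became 1 in DESeq2, 2 without a filter and 1 to 3 with 1 library left out. The cause was not tested. For 7 member results DESeq2 gave no adjusted p. Without TMM factors, 6 keratins were higher and 1 lower in 4T1 against 67NR tumors. No paired analysis was possible because the labels number the libraries from 1 to 45 and no groups share a number. Members with a few counts per library could not be compared at this depth, and 3 libraries per group limit every test.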

Other observations

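Type I and type II keratins build filaments together, and both summed levels were lowest in 67NR and highest in 4T1 tumors. The 26 type I genes summed to 28.8, 28.8 and 46.6 CPM in 67NR, 78.7, 121 and 122 CPM in 4T07 and 618, 521 and 472 CPM in 4T1 tumors. The 23 type II genes summed to 16.4, 28.3 and 26.5 CPM, 67.4, 107 and 90.03 CPM, and 402, 371 and 442 CPM in the same tumors. In the 4T1 tumors most of the type I sum was Krt18 (539.8, 431 and 375 CPM). Most of the type II sum there was Krt7 and Krt8, so the sums do not describe the other members. In control lungs the type II sum was 304 to 364 CPM, most of it Krt7, and the type I sum was 154 to 175 CPM. These sums are of 3′ tag counts, are given with no test and are not ranked between the types.

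Of 10 tested filament genes other than keratins, 1 rose (Prph, a neuronal filament gene) and 6 fell (Des, Nes, Synm, Lmna, Lmnb1 and Lmnb2) in 4T07 against 67NR tumors, with a median log2 fold change of -1.18 against 0.16 over all genes tested (edgeR). In 4T1 against 67NR tumors none rose and 2 fell (Nes and Lmnb2), with a median of -0.26 against 0.09. In 4T1 against 4T07 tumors 3 rose (Des, Nes and Lmna) and 1 fell (Prph), with a median of 0.67 against -0.05. Of all genes tested, 28.9%, 20.7% and 8.61% were called in these 3 comparisons, in the order given.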
